A study of Mus musculus with 20 samples.

Results

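Pancreatic digestive enzymes were followed here through 9 genes that encode proteins of the exocrine pancreas, Ctrb1, Cela1, Cela2a, Cela3b, Cpa1, Cpb1, Pnlip, Cel and Clps. They were taken by gene symbol from a deposited table of 51810 genes, which held each of the 9 under 1 identifier. The RNA came from medullary thymic epithelial cells (mTEC), stromal cells of the thymus that show self-antigens to developing T cells. The 12 libraries fall into 4 groups of 3, which are cHyper mTEChi, WT mTEChi, cHyper mTEClo and WT mTEClo. WT is the genotype labelled Trp53-WT and cHyper the genotype labelled Trp53-cHyper, so every group is defined by its version of Trp53, the gene of the tumour suppressor p53, and by its sorted cell type. By convention mTEChi and mTEClo differ in surface MHC class II and CD80, but the gates used, the meaning of cHyper, the driver of any Cre and the strain were not given in the sources used here. The mice of all groups were 4 to 5 weeks old, and 75000 mTEC went into each sorted sample after enrichment for EpCAM.

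In the pancreas, acinar cells make these proteins and release most of them as inactive zymogens into the gut, where trypsin activates the proteases. Chymotrypsin and the elastases cut inside protein chains, the carboxypeptidases remove amino acids from chain ends, and lipase, carboxyl ester lipase and colipase digest fat. In the thymus, mTEC transcribe such genes of other tissues at low level, each gene in a small share of the cells, and present the peptides so that T cells that recognise them are removed or become regulatory T cells. The regulator Aire, which is most abundant in mTEChi, drives many of these tissue-restricted genes, and Fezf2 drives others.

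Library totals were 22.02 to 47.93 M fragments, at most 25.31 M in replicate 3 and at least 42.08 M in replicates 1 and 2. Replicate 3 of each group also had no Ddx3y fragments and at least 1049 CPM of Xist, so sex and depth changed together with the replicate number and could not be told apart. Aire stood at 740 to 1123 TPM (a length-scaled share of transcripts) in cHyper mTEChi and 1169 to 1301 TPM in WT mTEChi, against 21.4 to 27.8 TPM in cHyper mTEClo and 6.56 to 8.92 TPM in WT mTEClo. Trp53 was higher in cHyper than in WT mTEChi (log2 0.41, SE 0.083, edgeR adjusted p = 0.020) and not called in mTEClo (log2 0.27, edgeR adjusted p = 0.0553). The mTEChi call was lost without cHyper replicate 1 or 3 or WT replicate 1 or 2 (edgeR adjusted p from 0.0895 to 0.11). In mTEClo the difference was called by DESeq2 (adjusted p = 0.00972), by limma-voom (adjusted p = 0.0475) and by edgeR with the replicate block (adjusted p = 0.0275). Fezf2 stood at 298 to 381 TPM in cHyper mTEChi and 310 to 411 TPM in WT mTEChi, against 82.4 to 120 TPM in cHyper mTEClo and 103 to 114 TPM in WT mTEClo. The mTEC marker list (Epcam, Krt5, Krt14 and others, 11 genes) had no gene at 0 in any group.

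The enzymes differed mainly between the sorted cell types. Together the 9 transcripts made up 93.5 ± 9.62 TPM in cHyper mTEChi and 122 ± 13.7 TPM in WT mTEChi, against 3.93 ± 1.25 TPM in cHyper mTEClo and 6.11 ± 3.80 TPM in WT mTEClo (SD, n = 3 each). In single libraries the sum was 87.7, 105 and 88.2 TPM in cHyper mTEChi, 106, 129 and 131 TPM in WT mTEChi, 2.83, 3.68 and 5.29 TPM in cHyper mTEClo, and 3.22, 4.70 and 10.4 TPM in WT mTEClo. No mTEClo library came near an mTEChi library. In bulk RNA, fewer expressing cells and less RNA per cell cannot be told apart, so these sums do not say how many cells carried an enzyme transcript.

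**Figure D1:**
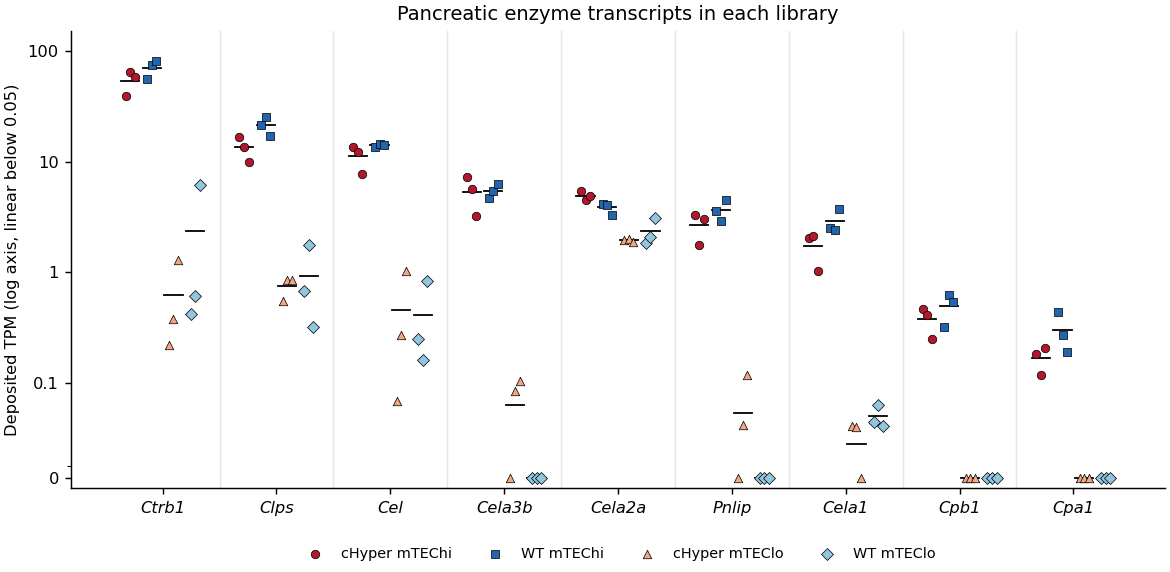
Deposited TPM of the 9 enzyme genes (vertical axis, logarithmic above 0.05 and linear below) in each of the 12 libraries, with groups from left to right cHyper mTEChi, WT mTEChi, cHyper mTEClo and WT mTEClo; points are libraries and bars are group means of 3. Ctrb1 lies highest in mTEChi, Cpb1 and Cpa1 are at 0 in every mTEClo library, and Cela2a stays between 1.82 and 3.11 TPM in mTEClo.

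Per length, Ctrb1 led the set in mTEChi. It held 57.1% of the 9 genes' TPM in cHyper mTEChi (44.4 to 65.7% over libraries) and 57.1% in WT mTEChi (52.1 to 61.8%). In cHyper mTEChi the order of mean TPM was Ctrb1, Clps, Cel, Cela3b, Cela2a, Pnlip, Cela1, Cpb1 and Cpa1, and WT mTEChi had the same order. Neighbours whose library ranges overlapped in cHyper mTEChi were Clps and Cel, Cela3b and Cela2a, and Pnlip and Cela1. In WT mTEChi the overlapping neighbours were Cela2a and Pnlip, Pnlip and Cela1, and Cpb1 and Cpa1. In mTEClo the order was another one, though the Cela2a values there are uncertain as to gene of origin, as set out below. Cela2a held 52.9% of the TPM in cHyper mTEClo (35.5 to 68.6% over libraries) and 43.7% in WT mTEClo (29.9 to 56.6%). In WT mTEClo, Ctrb1 had about the same mean level, at 2.38 TPM against 2.35 TPM for Cela2a, and it held 58.6% of the TPM in replicate 3.

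The first comparison asked how the enzymes differ between the sorted stages. Cpa1 did not pass the filter on low counts, and the 8 others were tested with edgeR's quasi-likelihood test, a call being a Benjamini-Hochberg adjusted p under 0.05 over all 28932 genes tested. In cHyper, 8 of 8 were called higher in mTEChi, where 38.7% of all tested genes were called higher and 64.5% were called in either direction. In WT, 8 of 8 were called higher in mTEChi, beside 40.2% of all tested genes called higher and 69.5% called either way. Genes with few mTEClo fragments could pass the filter only through mTEChi, such as Cpb1, Cela3b, Pnlip and Cela1, with at most 6 over either mTEClo group. For them a call in this direction was largely set by the filter, so the counts are not read against these shares. The same limit applies to low genes of the lists below. Over the tested members the median log2 fold change was 5.60 in cHyper and 5.31 in WT, or 5.11 and 5.04 with tested genes at 0 in mTEClo set to their lower bound. The median of all tested genes was 0.13 in cHyper and 0.12 in WT. Counted over all 9 genes, the mTEChi libraries lay above the mTEClo libraries without overlap for 9 in cHyper and for 8 in WT. The exception in WT was Cela2a on the CPM scale. Of tested genes, which leave out Cpa1, 40.3% did so in cHyper and 41.8% in WT. The limit set by the filter holds for these medians and counts too, so they are not read against the values of all tested genes.

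Ctrb1 encodes chymotrypsinogen B, an endopeptidase (chromosome 8, 111686519 to 111691010, minus strand, mm10). It had 39.0, 64.1 and 58.0 TPM in cHyper mTEChi and 55.3, 73.9 and 80.8 TPM in WT mTEChi, against 0.221, 0.378 and 1.29 TPM in cHyper mTEClo and 0.418, 0.612 and 6.11 TPM in WT mTEClo. Every mTEChi library was higher than every mTEClo library, and WT mTEClo replicate 3 stood apart from the other two of its group. These are 642, 1082 and 560 fragments in cHyper mTEChi and 882, 1236 and 843 fragments in WT mTEChi, against 4, 7 and 13 fragments in cHyper mTEClo and 7, 11 and 55 fragments in WT mTEClo. The log2 fold change of mTEChi over mTEClo was 6.52 in cHyper (SE 0.75, edgeR adjusted p = 2.72e-06) and 4.98 in WT (SE 0.65, edgeR adjusted p = 8.21e-06). Without cHyper mTEClo replicate 3 the cHyper value was 7.28. Without WT mTEClo replicate 3 the WT value was 6.84 (edgeR adjusted p = 2.94e-08) and without replicate 1 of that group it was 4.38.

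The elastase genes showed contrasting patterns in mTEClo, though the Cela2a values there are uncertain as to gene of origin. Cela3b encodes an elastase-family protease (chromosome 4, 137420999 to 137430540, minus strand). It stood at 7.20, 5.65 and 3.22 TPM in cHyper mTEChi and 4.73, 5.39 and 6.31 TPM in WT mTEChi, against 0, 0.0855 and 0.105 TPM in cHyper mTEClo and 0 in each WT mTEClo library. In fragments, mTEClo had 0, 3 and 2 in cHyper and none in WT, so the gene was near or at the limit of detection at this depth. It was 80.3-fold higher in cHyper mTEChi than in cHyper mTEClo (log2 6.33, SE 0.54, edgeR adjusted p = 4.47e-07), with a log2 value of 5.62 without cHyper mTEClo replicate 1. WT mTEChi was at least 129-fold higher than WT mTEClo, taking the 0 fragments of WT mTEClo at a floor of 3 fragments over the group (edgeR adjusted p = 1.86e-07).

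Cela1 encodes another elastase (chromosome 15, 100674421 to 100687921, minus strand). Its levels were 2.03, 2.14 and 1.03 TPM in cHyper mTEChi and 2.53, 2.39 and 3.76 TPM in WT mTEChi, against 0.0420, 0.0411 and 0 TPM in cHyper mTEClo and 0.0454, 0.0636 and 0.0423 TPM in WT mTEClo. All mTEChi libraries were clear of the mTEClo libraries, which held at most 3 fragments each. Its fold change was 45.5 in cHyper (log2 5.51, SE 0.53, edgeR adjusted p = 4.15e-07) and 46.0 in WT (log2 5.52, SE 0.49, edgeR adjusted p = 1.4e-07).

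Cela2a, also an elastase gene (chromosome 4, 141814962 to 141826160, minus strand), moved least between the stages. Its levels were 5.41, 4.53 and 4.85 TPM in cHyper mTEChi and 4.15, 4.08 and 3.32 TPM in WT mTEChi, against 1.94, 2.01 and 1.88 TPM in cHyper mTEClo and 1.82, 2.1 and 3.11 TPM in WT mTEClo. It was 2.32-fold higher in cHyper mTEChi than in cHyper mTEClo (log2 1.21, SE 0.23, edgeR adjusted p = 0.000287). In WT the difference was 1.45-fold (log2 0.54, SE 0.23, edgeR adjusted p = 0.0463), and it was called in 7 of 20 alternative fits, with adjusted p from 0.00827 to 0.195.

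In 5 of the 6 mTEClo libraries the count of Cela2a was within 2 fragments of that of its neighbour Ctrc, which encodes chymotrypsin C, and WT mTEClo replicate 3 differed by 11. In cHyper mTEClo, Cela2a had 69, 73 and 37 fragments and Ctrc 69, 73 and 39, and in WT mTEClo Cela2a had 60, 74 and 55 fragments and Ctrc 60, 73 and 44. In cHyper mTEChi, Cela2a had 175, 150 and 92 fragments and Ctrc 123, 144 and 78, and in WT mTEChi Cela2a had 130, 134 and 68 fragments and Ctrc 103, 117 and 74. The exons of both genes share 305 bases on one strand, and 94 of those bases also lie in an exon of Casp9, an apoptosis protease gene on the opposite strand. Fragments over shared exons appeared to be counted for each gene in this table. Of 121 genes that lie wholly within 1 exon of a gene on the opposite strand, 121 had fragments, at a median of 1.34 times the density of the surrounding gene. On the same strand 126 of 127 such genes had fragments, at a median of 0.81 times that density. Only genes within well-covered surrounding genes entered these counts. The Cela2a values in mTEClo are therefore uncertain as to gene of origin, and the part of Ctrc or Casp9 RNA in them was not tested. The shared exons lie in the mTEChi counts as well. Levels of Cela2a in mTEChi and its fold changes between stages and genotypes thus carry the same uncertainty.

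**Figure D2:**
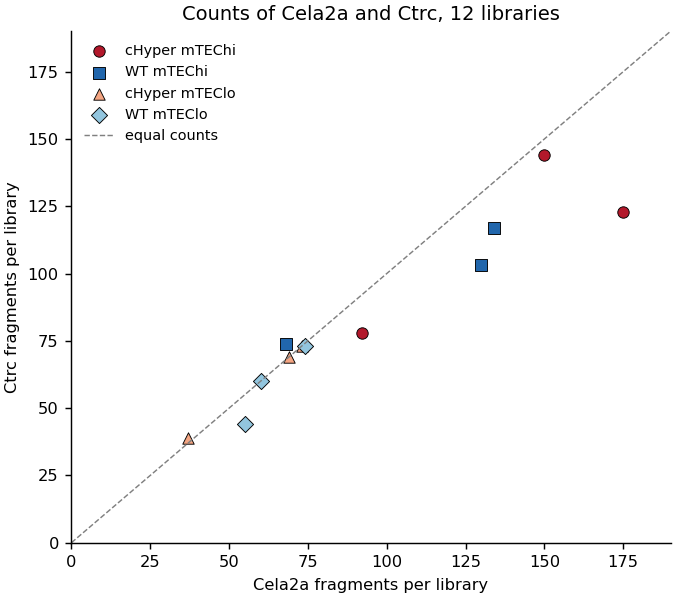
Fragments per library assigned to Cela2a (horizontal axis) and to its neighbour Ctrc (vertical axis) in the 12 libraries, with a dashed line where both counts are equal. Of the 6 mTEClo libraries, 5 lie on or within 2 fragments of the line and WT replicate 3 lies 11 off it, and 5 of the 6 mTEChi libraries have more Cela2a than Ctrc fragments.

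The carboxypeptidase genes were the lowest of the set. Cpb1 encodes carboxypeptidase B, which removes basic residues (chromosome 3, 20248264 to 20275733, minus strand). It had 29, 26 and 9 fragments in cHyper mTEChi and 19, 39 and 21 fragments in WT mTEChi, against 0 in all mTEClo libraries of either genotype. That put mTEChi at least 21.1-fold above mTEClo in cHyper (edgeR adjusted p = 8.03e-05) and at least 23.3-fold above it in WT (edgeR adjusted p = 4.73e-05). Cpa1 encodes carboxypeptidase A, which removes aromatic and aliphatic residues (chromosome 6, 30639218 to 30645363, plus strand). It had 6, 4 and 4 fragments in cHyper mTEChi and 14, 9 and 4 fragments in WT mTEChi, again against 0 in every mTEClo library. mTEChi was at least 4.61-fold higher in cHyper and at least 7.95-fold higher in WT. When no filter on low counts was used, Cpa1 was called higher in mTEChi in cHyper (edgeR adjusted p = 0.00711) and in WT (edgeR adjusted p = 0.00147).

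Among the genes of fat digestion, Clps, the gene of colipase, which anchors lipase to fat droplets, had the highest level (chromosome 17, 28558149 to 28560766, minus strand). It stood at 16.7, 13.6 and 9.96 TPM in cHyper mTEChi and 21.5, 25.1 and 17.1 TPM in WT mTEChi, against 0.555, 0.854 and 0.858 TPM in cHyper mTEClo and 0.686, 1.76 and 0.319 TPM in WT mTEClo. Its level was 16.3-fold higher in mTEChi in cHyper (log2 4.03, SE 0.40, edgeR adjusted p = 5.67e-07) and 18.1-fold higher in WT (log2 4.18, SE 0.38, edgeR adjusted p = 1.96e-07). Without WT mTEClo replicate 2 the WT log2 fold change was 5.02.

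Cel encodes carboxyl ester lipase, which is activated by bile salts (chromosome 2, 28555795 to 28563403, minus strand). Its TPM were 13.4, 12.3 and 7.73 in cHyper mTEChi and 13.6, 14.3 and 14.2 in WT mTEChi, against 0.0691, 0.271 and 1.04 in cHyper mTEClo and 0.249, 0.163 and 0.835 in WT mTEClo. In each mTEClo group, replicate 3 was the highest, with 25 fragments in cHyper and 18 in WT. The log2 fold change of mTEChi over mTEClo was 4.71 in cHyper (SE 0.56, edgeR adjusted p = 3.78e-06) and 5.10 in WT (SE 0.57, edgeR adjusted p = 1.73e-06). With replicates 1 and 2 only it was 6.02 in cHyper and 5.81 in WT. Leaving out mTEClo replicate 3 alone gave 5.83 in cHyper and 5.85 in WT, and leaving out cHyper mTEClo replicate 1 gave 4.08 in cHyper.

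Pnlip encodes pancreatic lipase, which splits triglycerides (chromosome 19, 58652498 to 58681788, plus strand). It had 3.28, 1.75 and 3.02 TPM in cHyper mTEChi and 3.61, 2.89 and 4.48 TPM in WT mTEChi, against 0, 0.0432 and 0.119 TPM in cHyper mTEClo and 0 in each WT mTEClo library. Of the mTEClo libraries, cHyper held 0, 2 and 3 fragments and WT none. It was 52.1-fold higher in cHyper mTEChi than in cHyper mTEClo (log2 5.70, SE 0.58, edgeR adjusted p = 2.22e-06), a log2 value that became 6.57 without cHyper mTEClo replicate 3 and 4.99 without cHyper mTEClo replicate 1. The WT difference was at least 112-fold (edgeR adjusted p = 3.81e-07).

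**Figure D3:**
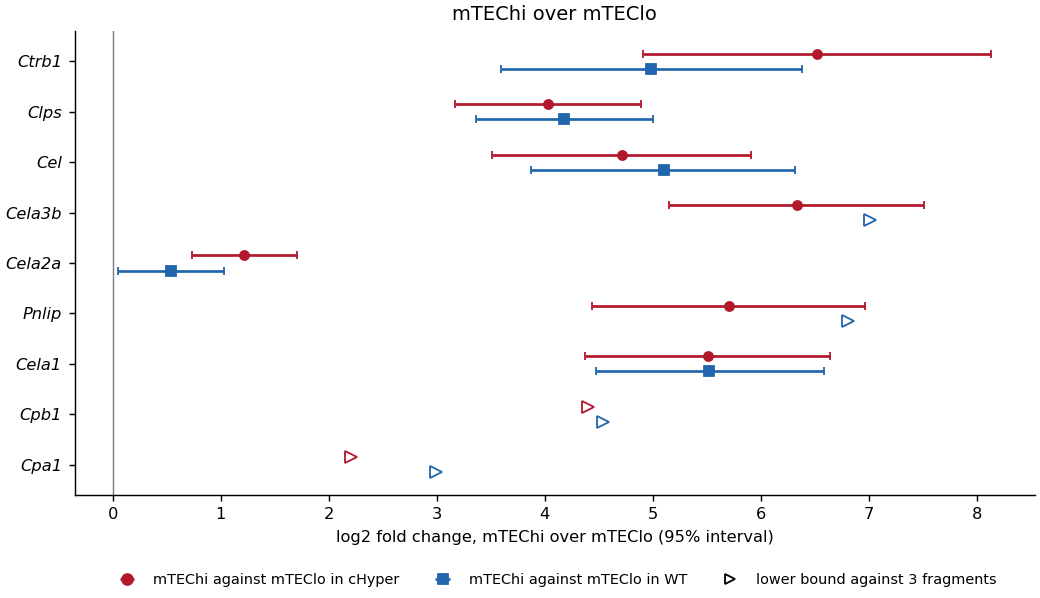
Log2 fold change of mTEChi over mTEClo (horizontal axis) with 95% intervals for each enzyme gene, in cHyper (circles) and WT (squares); open triangles are lower bounds against a floor of 3 fragments where all mTEClo libraries were at 0. Intervals lie above 0 in both genotypes, and those of Cela2a lie lowest, at 1.21 in cHyper and 0.54 in WT.

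Many markers of blood cells were also higher in mTEChi, where 38.7% of all tested genes were called higher in cHyper and 40.2% in WT. Of 12 myeloid and dendritic markers, 12 were called higher in cHyper and 12 in WT, and their summed level was 784 to 965 TPM in cHyper mTEChi and 917 to 1124 TPM in WT mTEChi, against 29.3 to 58.0 TPM in cHyper mTEClo and 30.6 to 40.3 TPM in WT mTEClo. All 5 B cell markers were called higher in mTEChi in each genotype, with sums of 43.5 to 55.1 TPM in cHyper mTEChi and 52.8 to 53.3 TPM in WT mTEChi, against 7.28 to 8.02 TPM in cHyper mTEClo and 8.77 to 14.1 TPM in WT mTEClo. Thymocyte markers were called higher in mTEChi for 6 of 12 in cHyper, close to the share of all genes, and 9 of 12 in WT. Among endothelial markers, 4 of 4 tested were called higher in each genotype, and among erythroid markers 4 of 5 in cHyper and 3 of 5 in WT. No gene of these lists was at 0 throughout a group, and their part in the enzyme result was not tested.

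The wider exocrine programme moved in the same direction, with exceptions. Of 25 other digestive enzyme genes, 23 were tested. In cHyper 20 were called higher and 0 lower in mTEChi, beside 38.7% of all tested genes higher and 25.8% lower. In WT 19 were called higher and 1 lower, beside 40.2% higher and 29.4% lower. The median log2 fold change of the tested genes was 4.80 in cHyper and 5.11 in WT, or 4.30 in cHyper and 4.26 in WT with genes at 0 in mTEClo set to their bound. Pla2g1b, the pancreatic phospholipase A2, had a log2 fold change of 6.34 in cHyper (edgeR adjusted p = 9.63e-09) and 7.51 in WT (edgeR adjusted p = 3.1e-09). Prss1, a trypsinogen gene, had 5.05 in cHyper and 7.45 in WT, and Prss3, another, had 5.48 in cHyper and 5.11 in WT. Rnase1, the gene of pancreatic ribonuclease, had 2.61 in cHyper (edgeR adjusted p = 4.43e-07) and 1.75 in WT (edgeR adjusted p = 1.37e-05). Trypsinogen and amylase genes are families of near-identical copies, so their counts are uncertain as to copy. Klk1, a kallikrein gene, was higher in mTEChi by 3.06 in cHyper and by 1.60 in WT on the log2 scale.

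In WT, Amy1, which shares exon sequence with Rnpc3, was the 1 enzyme gene called lower in mTEChi (log2 -0.71, edgeR adjusted p = 0.0144). Dnase1 and Ctrl were tested and called in neither genotype.

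Genes of the zymogen granule, its inhibitors and the secretory duct were likewise mostly higher in mTEChi. Of 16 genes 15 were tested. In cHyper 12 were called higher and 1 lower, beside 38.7% of all tested genes higher and 25.8% lower. In WT 12 were called higher and 2 lower, beside 40.2% higher and 29.4% lower. The median log2 fold change was 3.87 in cHyper, with bounds included, and 4.69 in WT. Cuzd1, a zymogen granule membrane protein gene, had 6.66 in cHyper and 8.69 in WT on the log2 scale. Tmprss15, which encodes enteropeptidase, the gut enzyme that activates trypsinogen, had 3.87 in cHyper and 4.69 in WT. Muc1, a mucin, had 3.24 in cHyper and 3.48 in WT, and Dmbt1, a secreted scavenger protein, had 4.08 in cHyper and 3.91 in WT. Rab27b, a GTPase of secretory granules, was lower in mTEChi, with -1.86 in cHyper and -2.34 in WT, and the granule membrane gene Gp2 had 0.31 in cHyper (edgeR adjusted p = 0.194) and -0.50 in WT (edgeR adjusted p = 0.0421).

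Acinar transcription factor genes were called in both directions. Of 15 tested, 11 were called higher and 3 lower in mTEChi in cHyper, beside 38.7% of all tested genes higher and 25.8% lower, and 10 higher and 3 lower in WT, beside 40.2% higher and 29.4% lower, with a median log2 fold change of 1.84 in cHyper and 1.61 in WT. Gata4 had 5.19 in cHyper and 6.27 in WT, and Nr5a2 had 4.42 in cHyper and 4.78 in WT. Rbpj, a general partner of the acinar factor Ptf1a, had 1.26 in cHyper and 1.38 in WT. Sox9, a factor of ducts and progenitors, was lower in mTEChi, at -1.0 in cHyper and -1.49 in WT, and the others called lower were Xbp1 and Rbpjl in cHyper and Xbp1 and Prox1 in WT. The WT call of Xbp1 (log2 -0.28, edgeR adjusted p = 0.0328) was lost with other scalings, with DESeq2 (log2 -0.18, adjusted p = 0.153), without WT mTEChi replicate 1 and without WT mTEClo replicate 2. Ptf1a itself, named after its values were seen and overlapping an antisense gene, had 2.53 in cHyper (edgeR adjusted p = 0.00102) and 4.77 in WT (edgeR adjusted p = 3.24e-05).

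**Figure D4:**
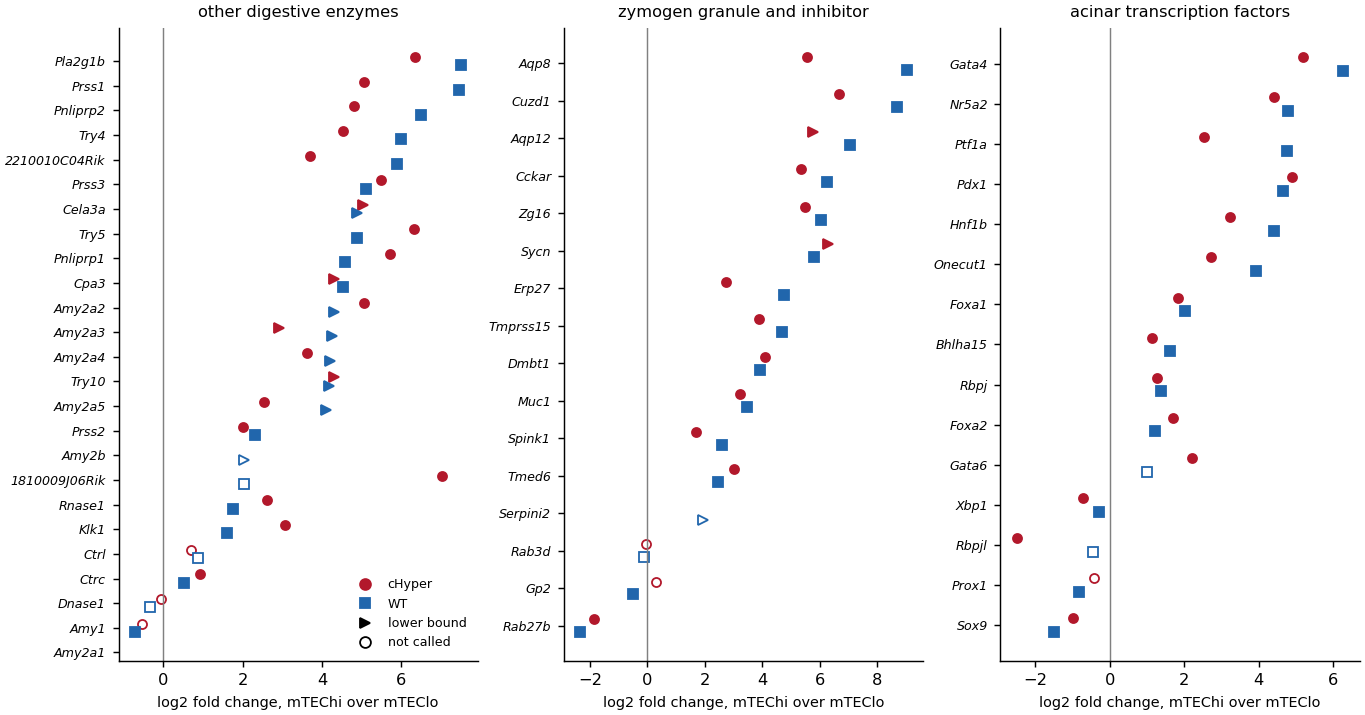
Log2 fold change of mTEChi over mTEClo (horizontal axes) for each gene of 3 exocrine pancreas lists, in cHyper (circles) and WT (squares), with triangles for lower bounds where all mTEClo libraries were at 0 and open symbols for genes not called or not tested. Most genes lie right of 0, while Rab27b and Sox9 lie left of it in both genotypes.

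Genes of other organs were higher in mTEChi too. Islet hormone genes were called higher in mTEChi for 8 of 8 in cHyper and 7 of 8 in WT. Genes of liver plasma proteins were called higher for 11 of 11 in each genotype. Of all tested genes, 38.7% were called higher in cHyper and 40.2% in WT. The islet hormone genes summed to 306 to 378 TPM in cHyper mTEChi and 358 to 487 TPM in WT mTEChi, above the enzymes' sums.

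Genes next to the enzymes moved in both directions. Of 83 genes within 100 kb of an enzyme gene, 58 were tested, and mTEChi was higher for 22 and lower for 17 in cHyper, a called share of 67.2% (53.7 to 79.0%, exact 95% binomial interval). In WT, 22 were higher and 19 lower, a called share of 70.7% (57.3 to 81.9%). Both shares were close to those of all tested genes given above, 64.5% in cHyper and 69.5% in WT. Neighbours of the same families were called higher, such as Cela3a beside Cela3b, which had 99 fragments in cHyper mTEChi and 101 in WT mTEChi, against none in mTEClo. Cpa3 beside Cpb1 and Pnliprp1 and Pnliprp2 beside Pnlip were also called higher in mTEChi in both genotypes. Bcar1, an adaptor gene 19.5 kb from Ctrb1, was called lower, with a log2 fold change of -2.17 in cHyper and -2.46 in WT, and Ralgds, 2.7 kb from Cel, had -1.23 in cHyper and -1.30 in WT.

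The promoters of the enzyme genes were read for the letters bound in acinar cells by the PTF1 complex. That complex joins Ptf1a, a bHLH factor that reads the E-box CANCTG, with Rbpj or Rbpjl, which reads TTTCCCA. Sequences of the 250 bases before each start site came from RefSeq on GRCm38.p6 and were found for 8 of the 9 genes, the missing one being Clps. The printed ones are the highest members with both motifs, Ctrb1 and Cel, the exception Cela2a, and Pnlip, which has neither. Capitals mark the E-box CANCTG, the Rbpj letters TTTCCCA and the TATA box TATAAA on either strand, and each window runs 5′ to 3′ towards the gene's start.
Ctrb1 promoter, chr8:111691011-111691260, minus strand: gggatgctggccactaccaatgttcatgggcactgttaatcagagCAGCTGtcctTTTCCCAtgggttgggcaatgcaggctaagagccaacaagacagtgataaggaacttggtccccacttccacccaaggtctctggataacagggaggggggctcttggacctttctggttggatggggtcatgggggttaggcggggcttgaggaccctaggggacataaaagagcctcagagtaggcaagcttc
Cel promoter, chr2:28563404-28563653, minus strand: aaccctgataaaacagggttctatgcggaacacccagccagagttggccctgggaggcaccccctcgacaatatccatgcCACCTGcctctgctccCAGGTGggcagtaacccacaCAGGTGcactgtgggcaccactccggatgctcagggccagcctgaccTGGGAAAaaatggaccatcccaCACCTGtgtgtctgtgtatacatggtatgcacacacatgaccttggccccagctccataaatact
Cela2a promoter, chr4:141826006-141826255, minus strand: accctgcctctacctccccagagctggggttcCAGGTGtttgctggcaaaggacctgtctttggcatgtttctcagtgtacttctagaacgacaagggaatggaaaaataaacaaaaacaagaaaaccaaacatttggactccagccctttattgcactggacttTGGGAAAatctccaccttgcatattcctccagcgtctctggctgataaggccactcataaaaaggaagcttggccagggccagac
Pnlip promoter, chr19:58670115-58670364, plus strand: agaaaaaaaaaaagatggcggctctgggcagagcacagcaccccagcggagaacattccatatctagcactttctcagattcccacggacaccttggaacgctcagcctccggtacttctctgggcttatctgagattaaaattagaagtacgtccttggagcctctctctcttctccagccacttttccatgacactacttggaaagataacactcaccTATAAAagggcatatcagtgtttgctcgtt
In Ctrb1 the E-box began 205 bases and TTTCCCA 195 bases before the start site, so that the 2 motifs were next to each other. CANCTG was found in 6 of 8 enzyme windows and in 44.8% of all 32851 windows, and TTTCCCA in 4 of 8 and in 6.82% of all windows. Both were present in 3 of 8, which are Ctrb1, Cel and Cela2a, and in 3.12% of all windows. TATAAA was found in Cela1 and Pnlip, 2 of 8, and in 12.4% of all windows. A match describes letters, not binding. The genes were chosen as genes of the exocrine pancreas, so these shares do not bear on their levels in mTEChi. The RefSeq start lay 17867 bases from the deposited start for Pnlip, 155 for Cela2a, 20 for Cela3b and 1 for Cela1, and at the same base for the other 4.

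The second comparison asked whether the enzymes differ between cHyper and WT. In mTEChi, 0 of 8 tested enzyme genes were called, where 1.98% of all tested genes were called. At an unadjusted p under 0.05 there were 0 in edgeR, and DESeq2 and limma-voom called 0. The mean CPM was lower in cHyper for 7 of the 9 genes and higher for 2, Cela2a and Cela3b. In TPM, Cela3b averaged 5.36 in cHyper mTEChi and 5.48 in WT mTEChi, so its direction depends on the scale. Library values in CPM did not overlap for Cela1 and Clps, which were lower in cHyper, where 13.3% of genes were lower without overlap, and for Cela2a, which was higher in cHyper, where 12.4% were.

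For Cela1 the mTEChi log2 fold change of cHyper over WT was -0.63 (95% interval -1.32 to 0.05, edgeR adjusted p = 0.373). For Clps it was -0.57 (-1.21 to 0.07, edgeR adjusted p = 0.396), and for Cela2a 0.44 (-0.02 to 0.91, edgeR adjusted p = 0.361). The other tested genes lay between -0.37 for Pnlip and 0.06 for Cela3b. The most abundant of them, Ctrb1, had -0.29 with an interval of -1.35 to 0.77, and Cel had -0.24 with an interval of -1.14 to 0.65, so each interval includes differences in either direction. The summed level of 87.7 to 105 TPM in cHyper mTEChi did not overlap the 106 to 131 TPM in WT mTEChi. In CPM the sums did overlap, at 44.4, 52.4 and 44.0 CPM in cHyper mTEChi and 46.6, 58.0 and 63.5 CPM in WT mTEChi.

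In mTEClo, 0 of 8 were called between cHyper and WT, where 9.16% of all tested genes were called. The counts cannot be set against that share, since Cpb1 had 0 fragments in all 6 mTEClo libraries and Cela1, Cela3b and Pnlip had at most 6 fragments over either group. DESeq2 and limma-voom called 0, and edgeR gave an unadjusted p under 0.05 for 2 genes, Cela3b and Pnlip. Each of these had 5 fragments over the cHyper mTEClo libraries and 0 over those of WT. With WT set at the floor of 3 fragments the ratio was 1.59. Neither gene was called (edgeR adjusted p = 0.189 for Cela3b and 0.196 for Pnlip), and so few fragments do not show a difference. Ctrb1 had a log2 fold change of -1.83 (95% interval -3.82 to 0.16, edgeR adjusted p = 0.259), and the value was 0.05 without WT mTEClo replicate 3, the library with 55 fragments. Cel had 0.14, or -1.01 without cHyper mTEClo replicate 3, 0.73 without cHyper mTEClo replicate 1 and 0.92 without WT mTEClo replicate 3. Clps had -0.42, or 0.46 without WT mTEClo replicate 2. The interval of Cel was -1.40 to 1.69, that of Clps -1.48 to 0.64 and that of Cela2a -0.73 to 0.27. Aire was higher in cHyper than in WT mTEClo (log2 1.64, SE 0.17, edgeR adjusted p = 2.39e-05), and its part in the enzyme levels was not tested.

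**Figure D5:**
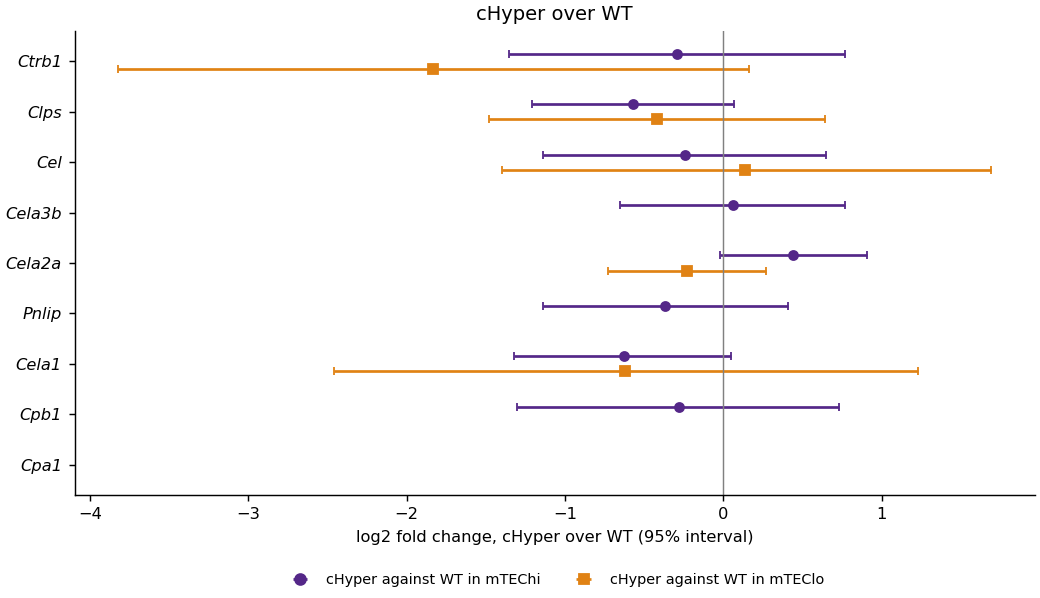
Log2 fold change of cHyper over WT (horizontal axis) with 95% intervals for each enzyme gene in mTEChi (circles) and mTEClo (squares); genes at 0 in a mTEClo group have no mTEClo value, and Cpa1 was not tested. All drawn intervals include 0, and those in mTEClo are wider, from -3.82 to 0.16 for Ctrb1.

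Whether the genotype acted unequally in mTEChi and mTEClo was tested as well, and this difference was called for 0 of 8 enzyme genes by edgeR, beside 2.06% of all tested genes, with 2 at an unadjusted p under 0.05 and 0 called by DESeq2 or limma-voom. The 2 were Cela3b and Pnlip, whose WT mTEClo libraries were all at 0. For Cpb1, at 0 in every mTEClo library, no difference could be estimated, and for Cela1 it rested on at most 6 mTEClo fragments over either group, so the count of 0 is not read against that share. Among genes with a value in each group, it was 1.54 for Ctrb1 (95% interval -0.73 to 3.81) and 0.67 for Cela2a (-0.01 to 1.36) on the log2 scale.

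Other exocrine genes were compared by genotype as well, first in mTEClo, where 9.16% of all tested genes were called in either direction. Of 15 tested acinar transcription factor genes 3 were called, and of 15 zymogen granule genes 0, and no statement about the lists rests on these counts. Of 23 tested digestive enzyme genes, edgeR called 0 higher and 1 lower in cHyper mTEClo, where 4.53% of all tested genes were higher and 4.64% lower, with 6 at an unadjusted p under 0.05, 4 called by DESeq2 and 2 by limma-voom. The gene called was Klk1, lower in cHyper (log2 -1.81, SE 0.24, edgeR adjusted p = 0.000238). Of the acinar transcription factors, Xbp1 (log2 0.44, edgeR adjusted p = 0.0188) and Rbpjl (log2 1.56, edgeR adjusted p = 0.0429) were higher in cHyper and Gata6 (log2 -1.85, edgeR adjusted p = 0.0433) lower. Xbp1 controls the secretory pathway, and Rbpjl is the acinar partner of Ptf1a, though it shares exon bases with Matn4 on the opposite strand. Leaving out 1 library ended these calls except that of Klk1. The call of Xbp1 ended without cHyper mTEClo replicate 2 or 3 or WT mTEClo replicate 1 or 3 (edgeR adjusted p from 0.0565 to 0.0784). Leaving out any of 9 libraries ended that of Rbpjl, and any of 9 that of Gata6, up to an edgeR adjusted p of 0.186 and 0.168. None of the zymogen granule genes was called by edgeR in mTEClo, with 3 at an unadjusted p under 0.05 and 1 called by DESeq2. In mTEChi edgeR called 0 genes of these 3 lists, with 0 digestive enzyme genes, 4 zymogen granule genes and 1 transcription factor gene at an unadjusted p under 0.05. DESeq2 called 1 of the zymogen granule genes and limma-voom 2, and neither called a gene of the other lists. With the replicate block edgeR called Cuzd1 (log2 -0.89, edgeR adjusted p = 0.0348) and Muc1 (log2 -0.39, edgeR adjusted p = 0.0338), both lower in cHyper mTEChi. Cuzd1 missed the threshold in the main fit (log2 -0.90, edgeR adjusted p = 0.053), at 556 fragments in cHyper mTEChi and 1074 in WT mTEChi. Its call did not depend on the block. Cuzd1 was also called lower by DESeq2 (log2 -0.95, adjusted p = 6.77e-05) and limma-voom (log2 -0.86, adjusted p = 0.0103). In edgeR it was called with either other scaling, with no filter and with only the compared groups. Leaving out 1 library gave the call in some fits only.

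Profiles over the 12 libraries were also compared with 18988 protein-coding genes, by the root mean square difference of log2 CPM after centring each profile on its own mean. The gene most like Ctrb1 was Tmem119 (0.55), that for Cel was Sim2 (0.40), for Clps Spopfm1 (0.30), for Cela1 C87977 (0.29), for Cela3b Pla1a (0.24), for Pnlip Nxph2 (0.23) and for Cpb1 Shbg (0.19). For Cela2a the nearest were Rangrf (0.17) and Ctrc (0.18). Among the enzymes themselves, Cela3b and Pnlip were nearest to each other, at 0.44, while the nearest enzyme to Cela2a was Cpb1, at 1.42.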

How the data were processed

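Per the submitters' processing notes, the data were processed on mm10 with TopHat2 2.1.1, SAMtools 1.9 and Subread 2.0.1, which holds featureCounts. The annotation release, strand setting and filters were not given in the sources used here. The authors deposited fragment counts and TPM per gene for 12 libraries, in which the runs of replicates 1 and 2 were already combined. The deposited table also holds a length per gene, and dividing counts by it gave back each TPM to within 0.207. Levels in TPM entered no test.

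The tests of these counts used edgeR 4.0.16 under R 4.3.3 (TMM scaling, filterByExpr, quasi-likelihood F test on group means of all 12 libraries). DESeq2 1.42.0 and limma-voom (limma 3.58.1) were alternatives, as were other scalings, no filter, a replicate block and leaving out libraries. CPM are on the TMM scale, except Xist, which is per library total. Calls were tested on simulated data. The labels do not say whether each replicate is its own animal, so a p-value reflects only how far these libraries vary, which may be technical. Binomial intervals and floors cover counting error only. The enzyme genes and the gene lists were chosen with earlier results of these data known. A few list genes are not reported here and enter no list count. Named from each list were up to 4 called genes with the smallest p per comparison, from the neighbours up to 3 nearest tested genes per enzyme gene, and always the enzymes, Aire, Fezf2 and Trp53. Ptf1a, Amy1, Rab27b, Gp2, Prox1, Dnase1 and Ctrl are outside this rule and were picked with their values known. Libraries of one number deviated together between cHyper and WT mTEChi (r of 0.167, 0.136 and 0.206 for numbers 1 to 3). They also did so between cHyper mTEChi and cHyper mTEClo (0.111, 0.104 and 0.125). The main fit held no term for the number, and the replicate block was an alternative only. Numbers 1 and 2 were alike in sex markers and depth, and only number 3 differed in them. Between numbers 1 and 2, r was 0.01 and 0.013 for cHyper and WT mTEChi. For cHyper mTEChi and cHyper mTEClo it was 0.006 and -0.023. What libraries of one number share was not tested, so these correlations cannot tell whether it is an animal.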

Additional observations from a re-analysis of the deposited data

Results flagged for a closer look

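By the edgeR test of the difference itself, the effect of the genotype was called as unequal between the cell types for 1 of 23 digestive enzyme genes, 0 of 15 zymogen granule genes and 0 of 15 transcription factor genes, beside 2.06% of all tested genes, so the count is no result about these lists. Klk1 had a cHyper over WT log2 fold change of -0.34 in mTEChi and -1.81 in mTEClo, a difference of 1.47 (SE 0.32, edgeR adjusted p = 0.0313), and it was called in 11 of 19 alternatives, with edgeR, DESeq2 or limma-voom adjusted p from 0.000417 to 0.0828.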

How the results depend on the processing

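The number of enzyme genes called stayed within 1.5 times its main value under every alternative run. In cHyper, mTEChi against mTEClo, it was 8, and 9 with no filter on low counts, which added Cpa1. In WT it was 8 or 7, and Cela2a was the gene lost. With no filter it was 8, with Cpa1 gained and Cela2a lost. It was 0 in each genotype comparison and in their difference. Library totals as scaling moved the median of all tested genes by 0.17 in cHyper and 0.22 in WT, mTEChi against mTEClo, so changes of that size depend on the scaling. With a replicate block the enzyme counts were 8 in cHyper and 8 in WT between the cell types and 0 in the other comparisons. The block changed no call of an enzyme gene. Between WT mTEChi and WT mTEClo the same-number correlations were 0.172, 0.093 and 0.233, and between cHyper and WT mTEClo 0.180, 0.097 and 0.171. The sum of CPM in place of TPM was 46.9 in cHyper mTEChi, 56.0 in WT mTEChi, 2.66 in cHyper mTEClo and 3.64 in WT mTEClo. Without Cela2a, left out after its overlap was seen, the summed TPM were 88.6, 118, 1.99 and 3.77 in the same order of groups. Within 50 kb, the called share of neighbours was 65.6% in cHyper and 68.8% in WT.

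Counts of called list genes were small between cHyper and WT, and the cause of their changes was not tested. In mTEClo, called digestive enzyme genes numbered 1, and 3 with no filter, 4 with DESeq2, 2 with limma-voom, the replicate block or replicates 1 and 2 only, and 1 to 2 leaving out 1 library. Zymogen granule genes numbered 0, and 1 with no filter, with DESeq2 and with replicates 1 and 2 only, and 0 to 1 leaving out 1 library. Transcription factor genes numbered 3, and 1 with only the compared groups or with replicates 1 and 2 only, and 0 to 2 leaving out 1 library. In mTEChi, zymogen granule genes numbered 0, and 1 with DESeq2 size factors, with library totals and with DESeq2, 2 with no filter, limma-voom, only the compared groups or the replicate block, and 0 to 1 leaving out 1 library. For the difference, digestive enzyme genes numbered 1, and 0 with library totals and 0 to 2 leaving out 1 library. Zymogen granule genes numbered 0, and 1 with no filter. Transcription factor genes numbered 0 with edgeR, with 5 at an unadjusted p under 0.05, and 1 with DESeq2 or the replicate block. Depth limits the mTEClo values, since Cela3b, Pnlip, Cpb1, Cpa1 and Cela1 had at most 3 fragments in any mTEClo library.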
